A study of Mus musculus with 2 samples.

Results

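The cells described here are the neutrophils of healed large wounds on mouse dorsal skin, as captured by single-cell RNA sequencing (scRNA-seq). They were picked by their own transcripts. A cell had at least 500 unique molecular identifiers (UMIs, each a count of 1 captured transcript), at least 300 genes and at most 15% mitochondrial UMIs. It carried at least 3 UMIs of Retnlg, Cxcr2 and Trem1 together and at least 20 UMIs of S100a8 and S100a9 together. It held fewer than 10 UMIs of the macrophage complement genes C1qa, C1qb and C1qc, fewer than 20 of the keratinocyte keratins Krt5 and Krt14, and fewer than 2 of the T cell genes Cd3d, Cd3e and Cd3g. This gate held 144 of 24649 filtered cells.

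Both groups were wild type (WT) mice with a circular wound of 1.8 cm in diameter. WT_LW wounds received PBS per the study's methods (a figure legend of the study names a control oligonucleotide for this group), and TLR9agonist_LW wounds received the TLR9 agonist ODN2395, a synthetic CpG oligonucleotide, on days 0, 3 and 6 after wounding. The study describes male C57BL/6J mice of 6 to 8 weeks, and wound centers 5 mm across taken 2 days after the scab fell off. Each group was several mice but 1 library, so the differences below have no replicate check. No test between conditions was possible, and every 95% interval covers counting error alone.

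Neutrophils are short-lived granulocytes that leave the bone marrow in response to G-CSF, follow CXCR2 ligands into injured tissue, and carry preformed antimicrobial granules. In skin wounds they arrive first, release chemokines and interleukin-1, and are normally cleared as the tissue closes. TLR9 is an endosomal receptor for unmethylated CpG DNA that signals through MyD88 to NF-kB and interferon regulatory factors. The comparison asked how many of these cells remained after wound closure in each group, and in what state.

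The filtered libraries held 11443 cells (WT_LW) and 13206 cells (TLR9agonist_LW), with medians of 5520 and 6311 UMIs per cell. Gated neutrophils held less RNA, with a median of 2211 UMIs (range 1510 to 16253) and 925 genes in WT_LW, and of 2754 UMIs (963 to 38226) and 848 genes in TLR9agonist_LW. Their summed UMIs came to 74614 and 635105. The median mitochondrial share was 1.17% in WT_LW and 0.504% in TLR9agonist_LW. Of the cell barcodes, 47 occurred in both libraries, and 0 of these lay in the gate in both.

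Neutrophil gate cells made up a larger share of the TLR9agonist_LW library. The gate held 20 cells in WT_LW, a share of 0.175% (exact Clopper-Pearson 95% interval 0.107 to 0.270%). It held 124 cells in TLR9agonist_LW, a share of 0.939% (0.782 to 1.12%). The ratio of the shares was 2.43 on the log2 scale (1.74 to 3.19), or 5.37-fold. With no S100 threshold it was 1.67 (39 and 143 cells), and T cells of TLR9agonist_LW also carried more S100 UMIs than those of WT_LW. Macrophages, gated in the same libraries by their own genes, went the other way, with 7.04% of cells in WT_LW and 3.56% in TLR9agonist_LW (log2 ratio -0.98, interval -1.15 to -0.82). Endothelial cells (-1.39) and T cells (-0.33) were also a smaller share, and fibroblasts (0.48) and keratinocytes (0.27) a larger one. A share depends on every other cell type in the library, and whether more neutrophils, fewer other cells or unequal survival of the dissociation set it cannot be told apart.

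**Figure D1:**
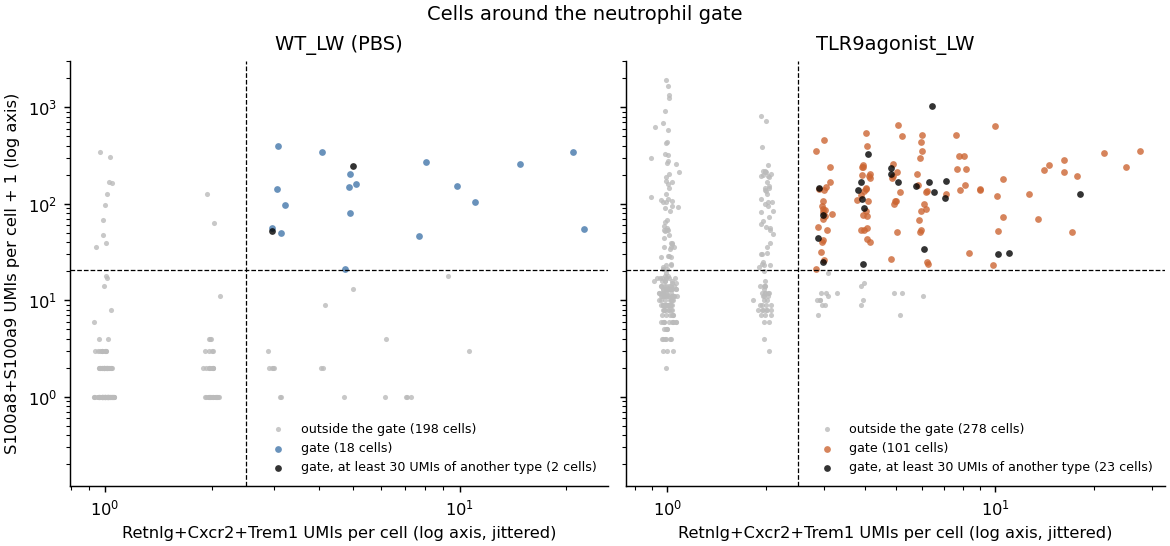
Each point is a cell, with its UMIs of Retnlg, Cxcr2 and Trem1 together on the x axis (log scale, jittered) and its UMIs of S100a8 and S100a9 plus 1 on the y axis (log scale), for WT_LW and TLR9agonist_LW. The 20 WT_LW and 124 TLR9agonist_LW gate cells sit above both limits, and TLR9agonist_LW has many more cells just outside the marker limit.

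The edges of the gate were described without a test, since these genes chose the cells. In WT_LW 6 of the gate cells had exactly 3 marker UMIs and 2 cells just outside had 2. TLR9agonist_LW had 26 gate cells with 3 marker UMIs and 44 cells outside with 2. On the S100 side, 1 and 15 gate cells had 20 to 39 UMIs of S100a8 and S100a9, whereas 2 and 10 otherwise fitting cells had 10 to 19. The median marker sum was 5 UMIs in both libraries. Among the gate cells Retnlg, which encodes a resistin-like secreted protein, was seen in 11 of 20 WT_LW and 80 of 124 TLR9agonist_LW cells. Cxcr2, the receptor for CXCL1, CXCL2 and CXCL3, was seen in 12 of 20 and 68 of 124. Trem1, an activating receptor that amplifies TLR responses, was seen in 16 of 20 and 105 of 124. All 3 genes were seen together in 5 of 20 and 33 of 124 cells.

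S100a8 and S100a9, the subunits of calprotectin, did not mark neutrophils alone in these libraries. T cells, which should lack them, carried a median of 0 UMIs of both genes in WT_LW and of 8 in TLR9agonist_LW, and 2.00% and 12.3% of all filtered cells held 20 or more. The T cell gate itself leaves out cells with 3 or more marker UMIs. Some cells with both kinds of transcripts exist, since the keratin limit lowered the gate from 22 to 21 cells in WT_LW and from 138 to 130 in TLR9agonist_LW, and the Cd3 limit from 21 to 20 and from 130 to 124.

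Several genes outside the rule, though not all of the marker list, carried the neutrophil label. At least 3 of Csf3r, Il1r2, Clec4d, G0s2 and Hdc were seen in 17 of 20 WT_LW and 112 of 124 TLR9agonist_LW gate cells. Csf3r, the G-CSF receptor, stood at 724 CPM (the gene's UMIs scaled to the summed UMIs of the gate cells, as CPM) in WT_LW and 265 CPM in TLR9agonist_LW neutrophils, against 44.8 and 32.6 CPM in macrophages. G0s2, a lipase inhibitor abundant in mature neutrophils, stood at 1246 and 1823 CPM, against 1.34 and 3.35 CPM in macrophages. Hdc, the histamine-forming enzyme, was at 684 and 812 CPM, against 6.08 and 25.7 CPM. Cxcr4, also on the neutrophil marker list, did not set the gate apart, at 241 and 64.6 CPM. It stood at 327 and 280 CPM in macrophages and at 186 and 271 CPM in T cells. The macrophage receptor gene Csf1r was low in the gate, at 13.4 and 22 CPM against 506 and 422 CPM in macrophages. Defining genes of neutrophil precursors were at or near 0. Elane and Ngp had 0 UMIs in both libraries, Mpo and Camp had 0 in WT_LW and 1 in TLR9agonist_LW, and Ltf had 1 in each. Ly6g, a surface antigen of mature mouse neutrophils, had 0 UMIs in the WT_LW gate cells and 2 in those of TLR9agonist_LW. Mmp8, also on the marker list, had 0 UMIs in WT_LW and 15 in TLR9agonist_LW, in 8 of 124 cells. Of the 9 listed markers outside the rule 6 had at least 30 UMIs in the gate. Ly6g, Mmp8 and Mmp9 did not. A count of 0, taken as up to 3 cells, allows a share of cells with a UMI of up to 15% of the 20 WT_LW and 2.42% of the 124 TLR9agonist_LW cells. It does not limit how many cells express the gene at a level too low to be captured.

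**Figure D2:**
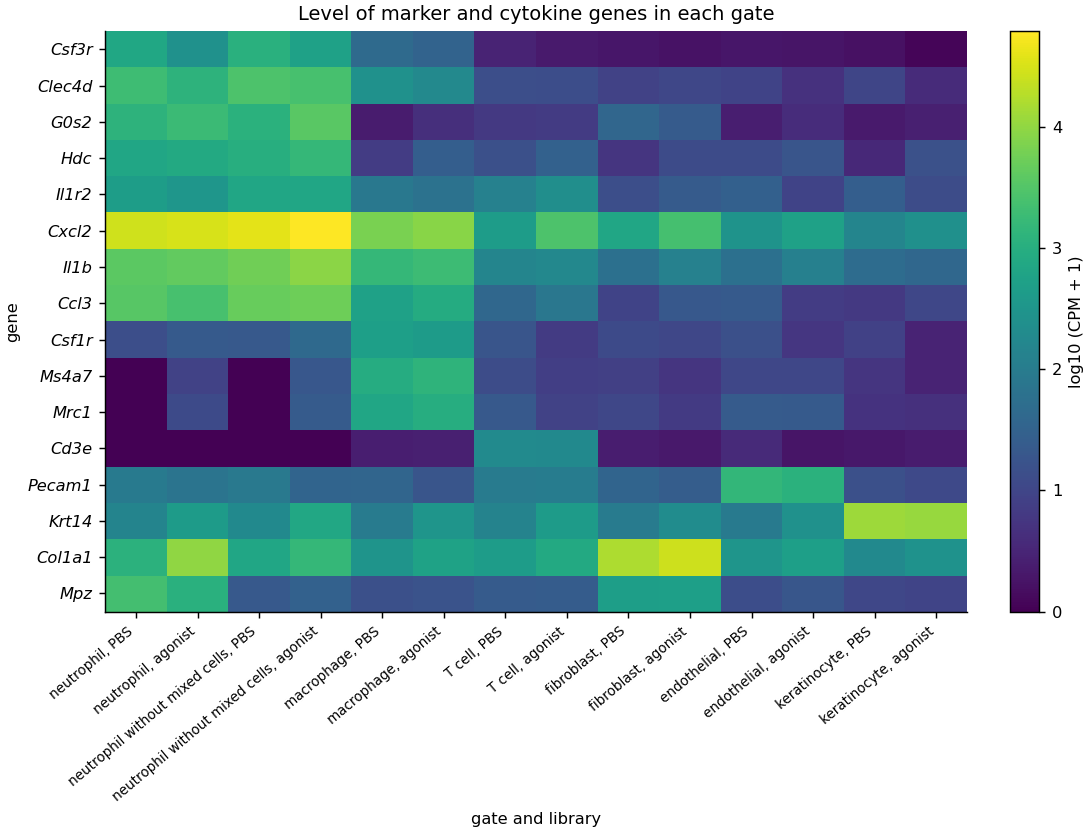
Rows are marker and cytokine genes, columns are the gates in each library, and the color is log10 of CPM plus 1 over the summed cells of the gate. G0s2, Hdc and Csf3r are bright in the 2 neutrophil columns, whereas Csf1r and Ms4a7 are bright in the macrophage columns, and Cxcl2 and Il1b are seen in both cell types.

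Every gate cell carried some fibroblast marker UMIs, with medians of 7.5 in WT_LW and 15 in TLR9agonist_LW and lowest values of 4 and 5, and a fraction carried many UMIs of another cell type. Taking 30 or more UMIs of any of 11 marker lists of other cells as mixed, a limit set after seeing the data, 2 of 20 WT_LW and 23 of 124 TLR9agonist_LW gate cells were mixed. Because their median depths were 13635 and 13438 UMIs, these few cells supplied 36.5% and 58.3% of the summed UMIs. Fibroblast genes were the usual partner, in 1 WT_LW and 18 TLR9agonist_LW cells. Macrophage markers had a median of 0 and a highest value of 2 and 8 UMIs per cell. Without the mixed cells the gate held 18 WT_LW cells (0.157%, 0.0933 to 0.248%) and 101 TLR9agonist_LW cells (0.765%, 0.623 to 0.929%), and the log2 ratio of the shares was 2.28 (1.55 to 3.09). Values below are mostly those of these unmixed cells, with the whole-gate value where it differs in call or direction. Their summed UMIs were 47344 and 264874 and their median depths were 2103 and 2502 UMIs.

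For each gene the UMIs of the gate cells were summed per library, and the log2 ratio of CPM (TLR9agonist_LW over WT_LW) was taken relative to the median gene, which lay at 0.13 in the whole gate and 0.17 in the unmixed cells. A gene is called higher or lower where this ratio was at least 2-fold and its interval stayed on that side, among genes with at least 100 UMIs. Of 900 genes in the whole gate 161 were higher in TLR9agonist_LW (17.9%) and 113 lower (12.6%). Of 411 genes in the unmixed cells 61 were higher (14.8%) and 45 lower (10.9%). Among the 411 genes 38 were called higher and 32 called lower in both versions. The counts for each group of genes are to be read against these shares. Of the whole-gate calls described below, those of Retnlg, Csf3r, Hp, Isg15, Eno1, Stfa2l1 and Krt1 were among those that changed sign with no S100 threshold, and those of Il1rn, Traf1, Hif1a, Gadd45a, Ctsz, Id2 and Mbp with at least 6 marker UMIs. WT_LW supplied far fewer UMIs, so a gene with few WT_LW UMIs reached the limit of 100 only where TLR9agonist_LW was high, and its call as higher is no support for a group.

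**Figure D3:**
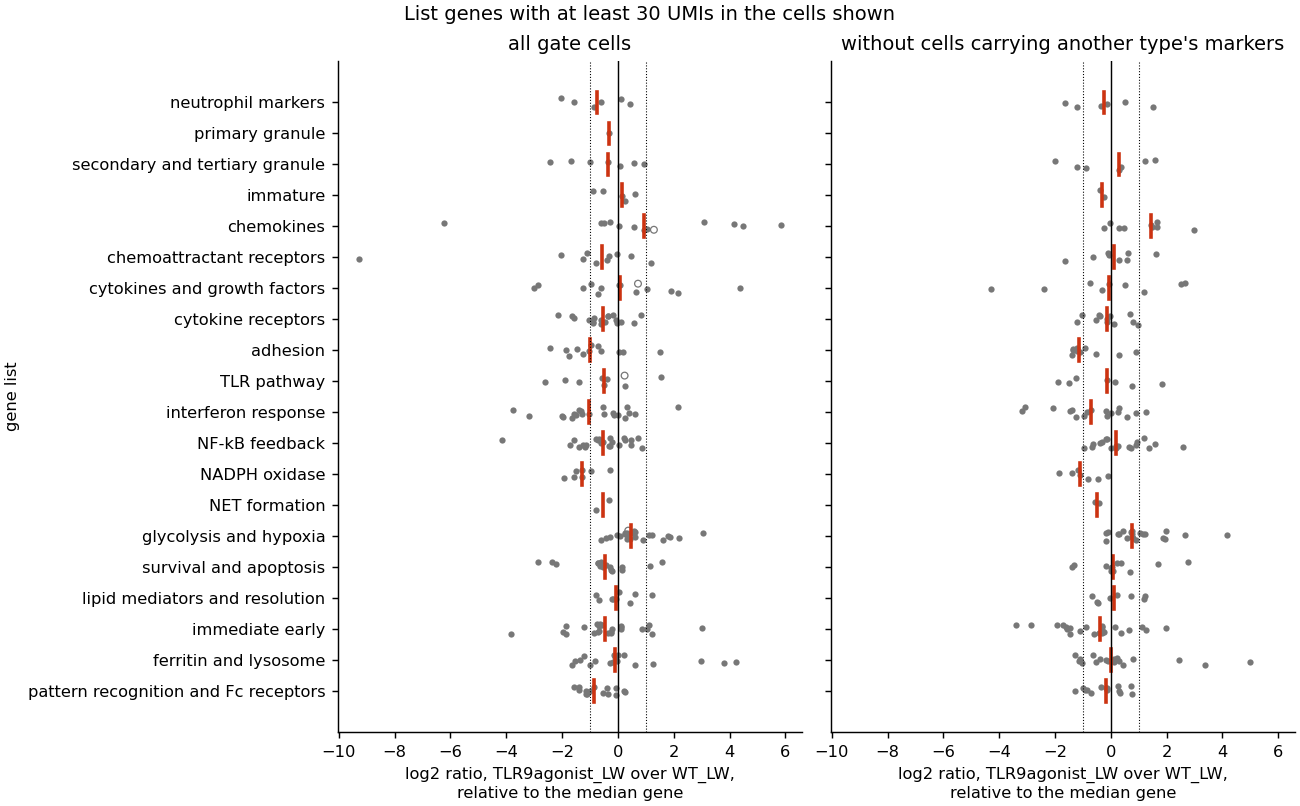
Each point is a gene of the named list with at least 30 UMIs, placed by its log2 ratio (TLR9agonist_LW over WT_LW) relative to the median gene, for all gate cells (left) and for the unmixed cells (right), with the list's median marked and genes without WT_LW UMIs drawn open at a bound taken against 3 UMIs. Genes of a list with few WT_LW UMIs can enter only where TLR9agonist_LW is high. NADPH oxidase genes lie to the left of 0 in both panels. Of all genes with at least 30 UMIs, 1231 of 2806 (all gate cells) and 468 of 1151 (unmixed cells) had ratios above 0.

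Among the chemokines, Ccl4 and Cxcl3 stood more than 2-fold higher in TLR9agonist_LW in the unmixed cells, Cxcl2 less than 2-fold higher, and the interval of Ccl3 included 0. Of 15 listed genes 10 had at least 100 UMIs in the whole gate, of which 5 were higher and 1 lower. In the unmixed cells 7 qualified, of which 4 were higher and 0 lower, but Cxcl1 (2 and 100 UMIs) and Ccl2 (5 and 99 UMIs) reached the limit only through TLR9agonist_LW, so this count is no support for the list. Cxcl2, Cxcl3 and Cxcl1 encode the CXCR2 ligands that draw further neutrophils. Their promoters are printed here because these genes are classical NF-kB targets and NF-kB lies downstream of TLR9. Each of their RefSeq promoter windows (GRCm38.p6, 250 bases before to 50 after the start) holds a match to GGANTTTCC (N is any base), the core of an NF-kB site, searched on both strands and shown in capitals, between 62 and 96 bases before the start. The sequences are the plus strand at chr5:90891125-90891244, chr5:90903779-90903898 and chr5:90785981-90786100.
Cxcl1: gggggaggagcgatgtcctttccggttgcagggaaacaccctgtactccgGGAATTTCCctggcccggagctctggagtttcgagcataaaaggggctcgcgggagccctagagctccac
Cxcl2: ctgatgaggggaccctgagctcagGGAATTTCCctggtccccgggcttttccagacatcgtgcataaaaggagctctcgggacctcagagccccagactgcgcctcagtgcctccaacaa
Cxcl3: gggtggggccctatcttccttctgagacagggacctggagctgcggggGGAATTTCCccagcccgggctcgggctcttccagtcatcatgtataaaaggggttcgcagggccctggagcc
Of the 15 chemokine genes 9 matched the promoter table, and Cxcl1, Cxcl2, Cxcl3 and Cxcl10, which are 4 of the 9, held such a match, against 392 of 27025 genes (1.45%). The letters were settled after the windows had been read, and a match describes the sequence and shows no binding.

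Cxcl2 was seen in all 18 and all 101 unmixed cells. Its level per 10000 UMIs of a cell ran from 5.47 to 1274 with a median of 333 in WT_LW, and from 12.9 to 2031 with a median of 498 in TLR9agonist_LW. The cells of the libraries overlapped over most of this range. In CPM it was 39583 and 61784, a log2 ratio of 0.47 (0.40 to 0.54), and 0.05 in the whole gate. Macrophages carried less, at 6859 and 8533 CPM. T cells showed 442 and 2841 CPM of Cxcl2, so a difference between the libraries was also seen in cells that should make little of it.

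Ccl4, which attracts monocytes and T cells, was seen in 11 of 18 WT_LW and 54 of 101 TLR9agonist_LW unmixed cells. The medians per 10000 UMIs were alike, at 5.01 and 5.42, but the highest cell reached 121 in WT_LW and 903 in TLR9agonist_LW. Summed over cells, its 1901 and 6682 CPM gave a log2 ratio of 1.64 (1.34 to 1.96), and this was 1.04 (0.77 to 1.33) in the whole gate. The difference thus lay in the upper cells rather than in the median cell, with the highest of 101 cells set against the highest of 18. In WT_LW the 2 highest cells held 71.1% of the 90 Ccl4 UMIs, so the control value rests on few cells. The close relative Ccl3 had medians of 25.5 and 24.5 per 10000 UMIs and a log2 ratio of -0.02 (-0.22 to 0.19) in the unmixed cells, and -0.61 (-0.80 to -0.42) in the whole gate.

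Cxcl3 was seen in 7 of 18 and 53 of 101 unmixed cells, at 803 and 2458 CPM (log2 ratio 1.44, 0.97 to 1.96, and 0.93 in the whole gate, short of 2-fold). It was 50.4 and 560 CPM in T cells and 242 and 233 CPM in macrophages. After thinning each cell to 1000 UMIs it was seen in 38.9% of WT_LW and 43.0% of TLR9agonist_LW neutrophils. Cxcl1 stood at 26.8 and 1666 CPM in the whole gate, with 958 of its 1058 TLR9agonist_LW UMIs in mixed cells, and Ccl2, Ccl7 and Cxcl10 followed the same pattern. In the thinned unmixed cells of TLR9agonist_LW Cxcl1 was seen in 33.0%, against 18.7% of T cells, whose median depths before thinning were 4430 and 4588 UMIs. Unthinned, it was seen in 2 of 18 and 55 of 101 neutrophils. Ccl5, the 1 chemokine called lower, fell from 139 UMIs to 1 in WT_LW when the 2 mixed cells were left out.

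Of the cytokines, Il1b, the main secreted interleukin-1, was seen in 16 of 18 and 97 of 101 unmixed cells. Its median per 10000 UMIs was 34.4 in WT_LW and 70.4 in TLR9agonist_LW, within ranges of 0 to 188 and 0 to 353 that overlapped. The log2 ratio was 0.52 (0.34 to 0.71), short of 2-fold, and 0.04 in the whole gate. Tnf was seen in 3 of 18 and 25 of 101 unmixed cells, at 190 and 487 CPM (1.19, 0.22 to 2.35), but its log2 ratio was 0.09 (-0.71 to 0.99) in the whole gate. Its control value rests on 9 UMIs, so Tnf reached the limit only through TLR9agonist_LW. Il1rn, the interleukin-1 receptor antagonist, was 1943 and 1314 CPM (-0.74, -1.07 to -0.39), and was called lower in the whole gate at -1.26 (-1.57 to -0.93), but with at least 6 marker UMIs it was at 1.18. Csf1, the macrophage growth factor, was called lower in the whole gate, at -3.00 (-3.54 to -2.45). In the unmixed cells it was 1120 and 64.2 CPM (log2 ratio -4.30, -5.18 to -3.48), on 53 and 17 UMIs, under the limit for a call. It was seen in 12 of 18 WT_LW cells and in 12 of 101 TLR9agonist_LW cells. Over the list, 6 genes had at least 100 UMIs in the whole gate, of which 1 was higher and 2 lower, and 4 in the unmixed cells, of which 1 was higher and 0 lower.

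Of the receptors of neutrophils, Csf3r was lower in TLR9agonist_LW in both versions. Its median per 10000 UMIs was 11.7 (0 to 38.6) in WT_LW and 4.33 (0 to 21.3) in TLR9agonist_LW, and it was seen in 16 of 18 and 70 of 101 unmixed cells. After thinning it was seen in 72.2% and 33.0% of neutrophils and in 0.101% of TLR9agonist_LW T cells. The log2 ratio was -1.20 (-1.66 to -0.71), and -1.58 (-2.03 to -1.11) in the whole gate. Single cells of the libraries overlapped in their values. With no S100 threshold, which admits 19 further cells in each library, the log2 ratio of Csf3r was 0.05, so the call depends on that limit. Of these admitted cells, 4 (WT_LW) and 8 (TLR9agonist_LW) had a Csf3r or G0s2 UMI. Dendritic cell markers reached 30 or more UMIs in 9 and 11 of them. Of the other receptors with at least 100 UMIs in the unmixed cells, 3 are given here, and not all that qualified. Among the remaining receptors of the 2 lists some lay farther from 0, such as Cxcr4 at -1.65 and Gpr35 at 1.63. Others lay near 0, such as Ifnar2 at -0.02 and Fpr2 at -0.10. Il1r2, a decoy receptor for interleukin-1, was at -0.15 (-0.69 to 0.44), the chemokine receptor Ccr1 at 0.31 (-0.19 to 0.85, and -0.31 in the whole gate) and Ccrl2, a chemerin-binding receptor, at -0.06 (-0.39 to 0.29, and -0.77 in the whole gate). Of the chemoattractant receptor list 4 genes qualified in the whole gate and 0 were called in either direction. Of the cytokine receptor list 6 qualified with 0 higher and 2 lower, and 5 in the unmixed cells with 0 higher and 1 lower. Of the rule's own genes, given as description, Retnlg was at -0.84, Cxcr2 at -0.47 and Trem1 at 0.26 in the unmixed cells, and at -1.20, -0.64 and -0.24 in the whole gate.

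**Figure D4:**
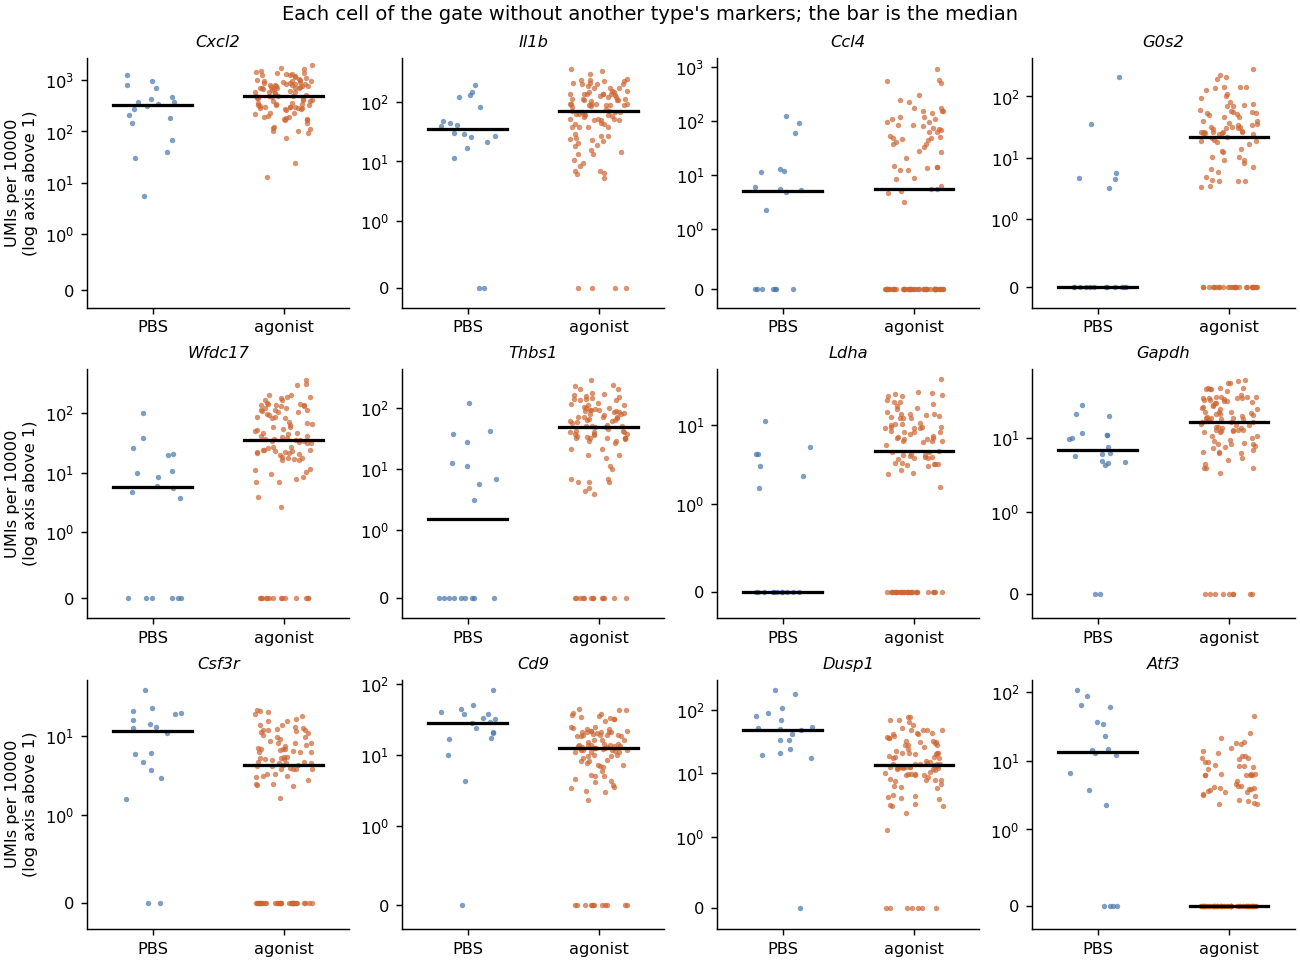
Each point is 1 unmixed gate cell, with its level of the named gene per 10000 UMIs on the y axis (log scale above 1), for WT_LW (18 cells) and TLR9agonist_LW (101 cells), and the bar marks the median. The medians of Thbs1 and Wfdc17 are higher in TLR9agonist_LW and those of Dusp1 and Csf3r are lower, with overlapping cells in every panel.

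Granule genes of neutrophil precursors were nearly absent in both libraries, and the later granule genes had no common direction across the versions. Of the 7 primary granule genes 0 had 100 UMIs. Of the secondary and tertiary granule list 6 qualified in each version, with 0 higher and 2 lower in the whole gate and 2 higher and 1 lower in the unmixed cells. Lcn2, the siderophore-binding lipocalin, was 190 and 506 CPM (1.24, 0.27 to 2.40), and Wfdc21 was 169 and 570 CPM (1.58, 0.57 to 2.82), both resting on fewer than 10 WT_LW UMIs, so that they reached the limit only through TLR9agonist_LW. In the whole gate neither was called, at 0.94 and 0.56. Hp, haptoglobin, was 655 and 321 CPM (-1.20, -1.81 to -0.56), but with no S100 threshold it was at 0.07. Slpi, an inhibitor of neutrophil elastase, was seen in 13 of 18 and 90 of 101 unmixed cells, at 5619 and 8185 CPM (0.37, 0.19 to 0.56). G0s2 was seen in 6 of 18 and 75 of 101 unmixed cells and had medians of 0 and 21.8 per 10000 UMIs. Its log2 ratio was 1.51 (1.12 to 1.93), but 0.42 (0.12 to 0.74) in the whole gate, and 43 of its 55 WT_LW UMIs came from 1 cell. In T cells it was seen in 0.248% and 0.438% after thinning.

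Of the adhesion genes, Cd44 and Cd9 were lower in TLR9agonist_LW in both versions. Of 18 listed genes 7 qualified in the whole gate, with 0 higher and 3 lower, and 4 in the unmixed cells, with 0 higher and 2 lower. Cd44, the hyaluronan receptor, had a median of 12.5 per 10000 UMIs (4.29 to 78.0) in WT_LW and of 7.04 (0 to 27.0) in TLR9agonist_LW, a log2 ratio of -1.38 (-1.75 to -1.0). The tetraspanin Cd9 had medians of 28.7 and 12.6 and a log2 ratio of -1.23 (-1.52 to -0.94).

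The 7 subunit genes of the NADPH oxidase, which makes superoxide in phagosomes, all lay below 0 in both versions, with medians of -1.30 and -1.09. Most genes did so too. Of all genes with at least 30 UMIs, 1231 of 2806 in the whole gate and 468 of 1151 in the unmixed cells lay above 0. Their medians were -0.15 and -0.18. Of the subunit genes, the 2 with 100 UMIs were both lower in the unmixed cells. Cyba, the membrane subunit p22phox, was 760 and 378 CPM (-1.18, -1.74 to -0.59), and the small GTPase Rac1 was 676 and 287 CPM (-1.41, -2.02 to -0.76). Of the genes tied to extracellular traps only Hmgb2 qualified, at -0.56 (-1.12 to 0.05).

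Transcripts of the receptor that the agonist targets were not seen in these cells. Tlr9 had 0 UMIs in the gate of either library, which, taken as up to 3 UMIs, allows up to 40.2 and 4.72 CPM. Macrophages had 1.58 and 3.07 CPM, below these limits, so the 0s do not set the gate apart from macrophages. The adaptor Myd88 had 5 and 9 UMIs, in 4 of 20 and 8 of 124 cells. Unc93b1, which carries TLR9 to endosomes, had 6 and 7 UMIs, and Irak4 and Traf6, kinase and ligase of the pathway, had 3 and 6 UMIs in WT_LW and 2 and 6 in TLR9agonist_LW. The gate held 74614 and 635105 UMIs in all, so similar counts stand for a lower CPM in TLR9agonist_LW, on few UMIs. Of the 28 pathway genes 9 had at least 30 UMIs in the whole gate, of which 3 lay above 0 (median -0.49). In the unmixed cells 7 had 30 UMIs, also with 3 above 0 (median -0.12). The lowest in the whole gate were Tlr13 at -2.60, Irak2 at -1.91 and Tlr2 at -1.41, and the highest was Tlr6 at 1.54. Only 2 pathway genes had 100 UMIs in the whole gate. Cd14, a co-receptor, was 1690 and 3239 CPM in the unmixed cells (0.77, 0.44 to 1.12), and 0.24 in the whole gate. Hsp90b1, the TLR chaperone, was -0.38 (-0.91 to 0.20) in the whole gate and -1.24 (-2.13 to -0.28), on 55 UMIs, in the unmixed cells.

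Genes downstream of interferon and NF-kB were called in small numbers, and fewer of them were called lower in the unmixed cells than in the whole gate. Of the interferon response list 8 genes qualified in the whole gate with 0 higher and 4 lower, and 6 in the unmixed cells with 1 higher and 0 lower. Its median was -1.02 and -0.72, against -0.15 and -0.18 for all genes with 30 UMIs, but 0.41 in the whole gate with no S100 threshold. Isg15, a ubiquitin-like protein, was seen in 8 of 18 and 41 of 101 unmixed cells, at 993 and 680 CPM (-0.72, -1.19 to -0.22), and was called lower in the whole gate at -1.02. Irf1 (-1.58) and Slfn4 (-1.40) were also called lower there, but changed sign with no S100 threshold. In the unmixed cells they were at -0.95 and -0.87. Rsad2 (-3.77, and -3.20 unmixed) and Samhd1 (-3.17, and -3.07 unmixed) had the lowest ratios of the list. Slfn2 was 465 and 1261 CPM (1.27, 0.65 to 1.96), and 0.61 in the whole gate. Ifitm1, a membrane protein that restricts viral entry, was 2281 and 4833 CPM (0.91, 0.63 to 1.21), and 0.41 in the whole gate. Of the NF-kB feedback genes 14 qualified in the whole gate with 0 higher and 3 lower, and 8 in the unmixed cells with 1 higher and 0 lower. Nfkbia, the inhibitor that NF-kB itself induces, was 4900 and 5599 CPM (0.02, -0.18 to 0.23), and -0.27 (-0.44 to -0.10) in the whole gate. Traf1, a TNF receptor adaptor, was -1.40 in the whole gate and 1.59 (0.43 to 3.07) in the unmixed cells, where it is the gene called higher. It has 6 WT_LW and 114 TLR9agonist_LW UMIs there, and 35 of its 41 WT_LW UMIs lay in the mixed cells. Traf1 thus reached the limit only through TLR9agonist_LW, and its call is no support for the list.

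Of the genes of glycolysis and of the hypoxia response, Ldha was called higher in TLR9agonist_LW neutrophils in both versions and Gapdh in the unmixed cells. Of 29 listed genes 13 qualified in the whole gate with 5 higher and 0 lower, and 9 in the unmixed cells with 4 higher and 0 lower. Most of these had few WT_LW UMIs (Eno1 1, Ero1l 4, Ldha 8) and reached the limit only through TLR9agonist_LW, so the count is no support for the list. Ldha, lactate dehydrogenase, was seen in 7 of 18 and 73 of 101 unmixed cells, with medians of 0 and 4.73 per 10000 UMIs. Its levels of 169 and 695 CPM gave a log2 ratio of 1.87 (0.86 to 3.10). Gapdh had medians of 6.86 (0 to 28.1) and 16.6 (0 to 62.0) and a log2 ratio of 1.05 (0.58 to 1.56), and of 0.60 in the whole gate. Eno1, enolase, rested on 1 WT_LW UMI against 114, so that its log2 ratio of 4.18 had the wide interval of 1.67 to 9.49. Ero1l, a hypoxia-induced oxidase of the endoplasmic reticulum, was 84.5 and 378 CPM (1.99, 0.59 to 3.89), and 0.62 in the whole gate. Hif1a, the oxygen-regulated transcription factor, was 1.22 (0.42 to 2.15) in the whole gate and 0.57 (-0.29 to 1.56) in the unmixed cells. Macrophages showed -0.21 for Ldha, -0.61 for Eno1 and -0.17 for Gapdh, and T cells 0.69, 0.66 and 0.79.

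The promoters of this list were searched for the letters ACGTG, the core of the hypoxia response element, on both strands. Of the 29 genes 26 matched the promoter table and 20 held it (76.9%), against 5886 of 27025 genes (21.8%). The palindrome CACGTG, in which ACGTG also lies, was held by 4 of 26 (15.4%) against 8.09% of all genes. Stretches of an Ldha window (GRCm38.p6, plus strand, chr7:46845684-46845803) and of the Pgam1 window (plus strand, chr19:41911751-41911870) show the letters in capitals, in Ldha also the reverse complement CACGT. The stretch of another Ldha window (plus strand, chr7:46846962-46847081) held no match and is not printed. Stretches of the same length from the Mif and Aldoa windows also held no match and are not printed. Pgam1 encodes phosphoglycerate mutase.
Ldha: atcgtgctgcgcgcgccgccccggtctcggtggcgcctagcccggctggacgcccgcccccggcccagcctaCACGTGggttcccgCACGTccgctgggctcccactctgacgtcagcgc
Pgam1: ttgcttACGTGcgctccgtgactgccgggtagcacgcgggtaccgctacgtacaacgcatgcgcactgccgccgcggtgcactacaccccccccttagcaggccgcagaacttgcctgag
The list was chosen for its function, and a match shows no binding in these cells.

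Genes of survival showed no common direction. Mcl1, which neutrophils need to stay alive, had a median of 21.3 per 10000 UMIs in both libraries and a log2 ratio of 0.05 (-0.27 to 0.37) in the unmixed cells, and -0.64 (-0.91 to -0.37) in the whole gate. Bcl2a1b, another anti-apoptotic gene, was 782 and 351 CPM (-1.33, -1.89 to -0.73), and it has near-identical copies between which reads can be split. Gadd45a, a stress-induced growth arrest gene, was 106 and 381 CPM (1.68, 0.41 to 3.34) on 5 WT_LW UMIs. Of the lipid mediator and resolution list, Cd274, the checkpoint ligand PD-L1, was 190 and 506 CPM (1.24, 0.27 to 2.40) on 9 WT_LW UMIs, but its log2 ratio was -0.22 (-0.90 to 0.53) in the whole gate. Ptgs2, the inducible cyclooxygenase, was 1120 and 785 CPM (-0.68, -1.12 to -0.22).

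Of the immediate early genes, Dusp1, Atf3, Jun and Klf2 were lower in TLR9agonist_LW in both versions, and the list as a whole had no common direction in the whole gate, where 23 of 27 genes qualified with 4 higher and 4 lower. In the unmixed cells 17 qualified, with 1 higher and 6 lower. Dusp1, a phosphatase that shuts off MAP kinases, had a median of 48.4 per 10000 UMIs (0 to 201) in WT_LW and of 13.5 (0 to 77.2) in TLR9agonist_LW. The log2 ratio was -1.93 (-2.13 to -1.72), and -1.98 in the whole gate. Atf3, a stress-induced repressor, was seen in 14 of 18 and 50 of 101 unmixed cells, with medians of 13.5 and 0, and its log2 ratio was -2.87 (-3.25 to -2.49). Jun was at -1.70 (-2.01 to -1.39), Jund at -1.60 (-1.99 to -1.20), Egr1 at -1.58 (-2.17 to -0.96) and Klf2 at -1.46 (-1.78 to -1.13). In the whole gate Jund was at -0.71 and Egr1 at 0.12, so neither was called there. The heat shock gene Hspa1a, the 1 gene called higher, went the other way, at 190 and 842 CPM (1.98, 1.03 to 3.12). Its highest TLR9agonist_LW cell held 355 per 10000 UMIs. Hspa1a rested on few WT_LW UMIs and reached the limit only through TLR9agonist_LW, so its call is no support for the list. In macrophages Dusp1 was at -0.68 and Atf3 at -0.05. The median mitochondrial share of the unmixed cells, 1.04% and 0.457%, was also lower in TLR9agonist_LW, and its part in this result was not tested.

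Among ferritin, lysosome and protease inhibitor genes, Fth1, the ferritin heavy chain, had medians of 446 and 846 per 10000 UMIs in WT_LW and TLR9agonist_LW and a log2 ratio of 0.78 (0.72 to 0.85), and of 0.21 in the whole gate. Fth1 in T cells was 4034 and 10611 CPM. The cathepsins Ctsd (-1.30, -1.63 to -0.97) and Ctsz (-1.04, -1.58 to -0.48) were lower. The stefins, cytosolic inhibitors of cysteine cathepsins, form a family of near-identical copies whose reads can be split or misassigned. Its members did not share a direction. Stfa2l1 was 1711 and 906 CPM (-1.09, -1.46 to -0.71), and Gm5483 was 1964 and 2964 CPM (0.42, 0.11 to 0.75), and -0.05 in the whole gate. BC100530 was 211 and 2465 CPM (3.37, 2.49 to 4.44), Stfa3 169 and 1046 CPM and Stfa1 21.1 and 751 CPM. These genes rested on few WT_LW UMIs and reached the limit only through TLR9agonist_LW. In thinned TLR9agonist_LW cells BC100530 was seen in 89.0% of neutrophils and in 76.1% of T cells, and Stfa3 in 63.0% and 48.7%, so T cells carried them nearly as often. The unthinned numbers were 8 of 18 and 100 of 101 unmixed cells for BC100530, and 7 of 18 and 91 of 101 for Stfa3.

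The 12 highest and 12 lowest ratios of the whole gate depended on the mixed cells for some genes and not for others. The highest 12 were BC100530, Lgals7, Krt1, Dcn, Stfa3, Col1a1, Postn, Col1a2, Spp1, Thbs2, Tmsb10 and Col3a1, from 4.23 down to 2.08. Postn and Thbs2 were at -0.02 and -0.33 in the unmixed cells, and the collagens Col1a1, Col1a2 and Col3a1 dropped to between 0.36 and 1.03. BC100530, Stfa3 and Spp1 stayed at 3.37, 2.46 and 2.85, and Dcn at 1.12. The keratinocyte genes Lgals7 and Krt1 stayed at 2.23 and 2.09, but in thinned TLR9agonist_LW cells were also seen in 80.6% and 34.5% of T cells. Of the lowest 12, which were Ccl5, Clec4n, Csf1, Id2, Lsp1, Lst1, Bcl2a1b, Cst3, Cytip, Mbp, Dusp1 and Coro1a, Clec4n (dectin-2) was at -3.19 and, without mixed cells, at -2.75 (-3.36 to -2.14). Lst1 was at -2.07 (-2.70 to -1.42), and Coro1a, which encodes the actin-binding coronin, was at -1.37 (-2.09 to -0.60). Ccl5 was at 0.35, Id2 at -0.44 and Cytip at -0.75, and their whole-gate values rested on the mixed cells.

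Spp1, the secreted phosphoprotein osteopontin, stood apart in that list because it was seen in few T cells. It was found in 5 of 18 and 51 of 101 unmixed cells, with ranges of 0 to 40.9 and 0 to 333 per 10000 UMIs, and stood at 380 and 3088 CPM (log2 ratio 2.85, 2.18 to 3.61). The WT_LW value rested on 18 UMIs, of which the 2 highest cells held 83.3%. After thinning Spp1 was seen in 16.7% and 46.0% of neutrophils and in 1.72% of TLR9agonist_LW T cells. Macrophages had 503 and 453 CPM. Thrombospondin-1 (Thbs1), a matrix glycoprotein, was seen in 9 of 18 and 88 of 101 unmixed cells, with medians of 1.55 and 48.4 per 10000 UMIs and a log2 ratio of 2.15 (1.78 to 2.54). It was seen in 84.0% of thinned TLR9agonist_LW neutrophils and 4.42% of T cells. Wfdc17, a small whey acidic protein, had medians of 5.69 and 35.5 and a log2 ratio of 2.38 (1.99 to 2.80), in 12 of 18 and 87 of 101 unmixed cells, and after thinning in 79.0% of TLR9agonist_LW neutrophils and 1.96% of T cells. For Thbs1 and Wfdc17 the median TLR9agonist_LW cell lay above the median WT_LW cell. For Spp1 it did so only barely, since 51 of 101 cells had a UMI. For all 3 genes some cells in both libraries had 0 UMIs.

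**Figure D5:**
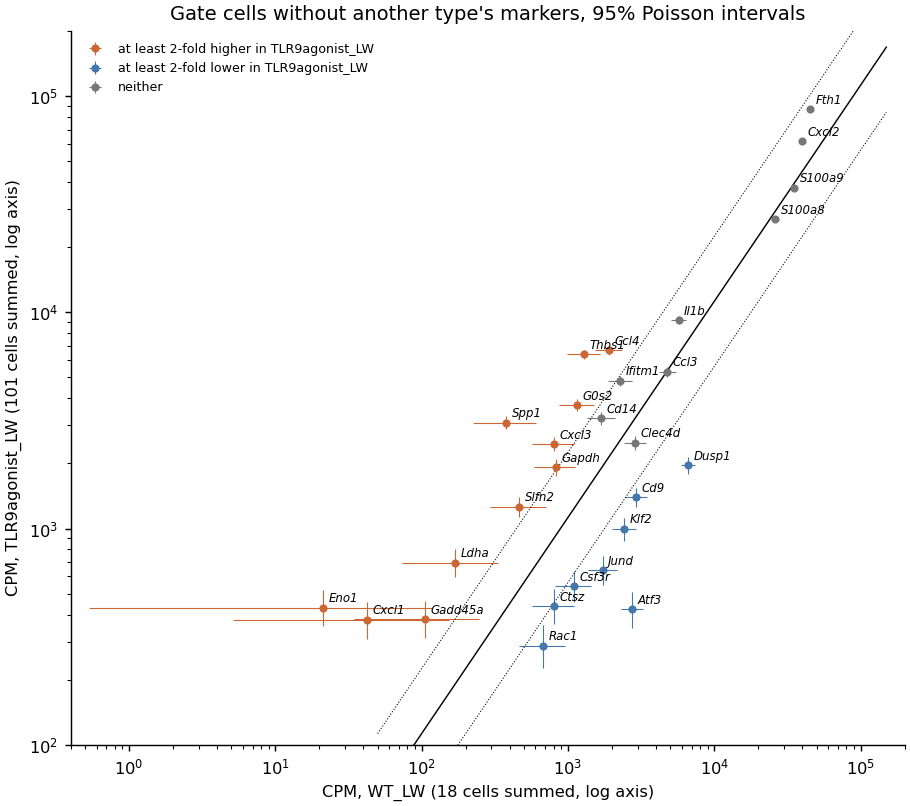
Each point is a gene, with its CPM over the 18 unmixed WT_LW cells on the x axis and over the 101 unmixed TLR9agonist_LW cells on the y axis (both log scales), and the bars are exact Poisson 95% intervals. The solid line is the ratio of the median gene and the dotted lines are 2-fold from it. Spp1, Thbs1 and Ldha lie above the dotted band and Dusp1, Atf3 and Rac1 below it.

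The unmixed cells of the libraries fell mostly into different sub-clusters. Of 5 sub-clusters, number 3, led by mitochondrial genes and Atf3, held 15 of 18 WT_LW and 7 of 101 TLR9agonist_LW cells. Numbers 2 and 4, led by Spp1 and by Ccl4, held 25 (24.8%, 16.7 to 34.3%) and 18 (17.8%, 10.9 to 26.7%) TLR9agonist_LW cells and 0 WT_LW cells. A count of 0 of 18 allows up to 18.5%, so it does not show that these sub-clusters were absent from WT_LW. Number 1, led by Hmox1, held 1 WT_LW and 36 TLR9agonist_LW cells. Number 5, led by Rgcc, held a similar share of both, with 2 WT_LW (11.1%) and 15 TLR9agonist_LW cells (14.9%). With 1 library per group, a sub-cluster mostly of 1 library cannot be told apart from that library.

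The unmixed TLR9agonist_LW cells also differed among themselves in how evenly they held each product. The 10 cells with the most Ccl4 held 66.2% of its 1770 UMIs, whereas the 10 highest for Thbs1 held 32.1% of 1699 UMIs and those for Wfdc17 38.6% of 1766. Spp1 was also concentrated, with 61.2% in 10 cells, and Tnf had 87.6% of its 129 UMIs there, against 31.5% of 143 for Csf3r. Such concentration was also seen in WT_LW, where the 2 highest of 18 cells held 71.1% of Ccl4 and 83.3% of Spp1 UMIs. In TLR9agonist_LW Cxcl2 was spread more widely, with 26.9% of its UMIs in the 10 highest cells. Across 100 cells thinned to 1000 UMIs, which share 1 library, Spearman's rho was 0.29 for Ccl3 with Il1b, 0.20 for Ccl3 with Ccl4, 0.13 for Thbs1 with Spp1 and -0.11 for G0s2 with Ccl3, all weak, and the other pairs computed that leave out S100a8 lay between -0.04 and 0.29.

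Although few in number, gate cells held a sizeable part of some wound transcripts. All gate cells together held 0.0774% of the UMIs of the WT_LW library and 0.485% of those of TLR9agonist_LW. They held 5.67% and 22.7% of all Csf3r UMIs, 2.17% and 9.34% of Ccl3, 1.18% and 4.60% of Cxcl2, and 0.588% and 3.26% of Il1b. Spp1 showed 0.138% and 5.90%, and Ccl4 0.326% and 5.93%. For Cxcl1 the gate held 0.00359% and 0.490%, the latter close to its share of all UMIs.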

How the data were processed

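Dissociated wound cells were sequenced on the 10x 3' platform. The authors deposited, per library, a matrix of UMI counts with barcodes and genes, made with Cell Ranger 4.0.0 per the file headers. The submitters' processing notes also name fastp, Seurat and the build mm9, with no role. The counts were used as deposited. Cells with at least 500 UMIs, 300 genes and at most 15% mitochondrial UMIs were kept (11443 of 12800 and 13206 of 13751), and the gate was applied to raw counts. UMIs were summed per library and gate and given as CPM. Intervals at 95% were exact Poisson (levels), Clopper-Pearson (shares) and conditional binomial (ratios). With 1 library per group no test across samples was made. Shares of cells were compared after thinning to 1000 UMIs, and the unthinned numbers of cells are given. Doublets were scored with Scrublet in scanpy 1.11.5. Its own threshold marked 0 cells, so the top-scoring 9.16% and 10.6% of cells were treated as doublets in an alternative and kept otherwise. Python 3.11.15, numpy 2.4.6, scipy 1.17.1 and pandas 2.3.3 were used. The scripts were tested on simulated data. Promoter windows came from RefSeq (GRCm38.p6), and gene symbols from the files.

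Named genes were those of the gate rule, members of 20 gene lists with at least 100 UMIs that were past 2-fold or among the 3 most abundant of their list, TLR9 and its pathway, and the 12 highest and 12 lowest ratios with at least 10 UMIs in each library. Thbs1, Wfdc17, Neat1, Cdkn1a and Fabp5 were chosen after their values were seen. Some genes that the rule names are not reported here. The members and lists were chosen with earlier results of these data known. The study gives 6 mice per group in its results text and 5 samples in its methods, how they were combined is not given in the sources used here, and each library was treated as 1 sample.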

Additional observations from a re-analysis of the deposited data

Results flagged for a closer look

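Of the genes named for neutrophils, 2 went in the opposite direction in macrophages of the same libraries, each by 2-fold or more. Klf2, a transcription factor of quiescence, had a log2 ratio of -1.85 in the neutrophil gate (-1.46 without mixed cells) and of 1.0 in macrophages. Isg15 had -1.02 in the neutrophil gate (-0.72 without mixed cells) and 1.08 in macrophages. Without mixed cells Isg15 was short of 2-fold, and with no S100 threshold it was 0.80, the direction of the macrophages. With 1 library per group the difference between the cell types was not tested.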

How the results depend on the processing

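No paired analysis was possible because each group was 1 library. The log2 ratio of the gate shares kept its direction under every alternative and stayed between 2.28 and 2.74, except that it was 1.67 (39 and 143 cells) with no S100 threshold, an alternative added after seeing the data, as were leaving out mixed cells and keeping cells of 1500 to 4000 UMIs. The planned limit of 5 UMIs of another type's markers left 1 and 0 cells and gave no value. Low WT_LW counts limit most ratios.

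Genes called higher numbered 161 in the whole gate, 81 with at least 6 marker UMIs, 61 without mixed cells, 42 in cells of 1500 to 4000 UMIs, 342 at a minimum of 30 UMIs per gene and 56 at 300. Genes called lower numbered 113, and 45 without mixed cells, 46 in cells of 1500 to 4000 UMIs, 347 at 30 UMIs and 40 at 300. Without centring the counts were 178 and 88. List medians moved with at least 6 marker UMIs to 0.13 (glycolysis and hypoxia, from 0.47), -2.01 (interferon response, from -1.02), -1.36 (immediate early, from -0.46), -2.14 (NADPH oxidase, from -1.30) and -1.24 (cytokine receptors, from -0.53). With no S100 threshold they were 0.41 (interferon response), 0.13 (immediate early), 0.21 (NF-kB feedback, from -0.53) and 0.03 (cytokine receptors). NF-kB feedback was 0.18 without mixed cells, and immediate early was -0.85 with at least 60 S100 UMIs and -0.90 without predicted doublets.

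Of the named genes called in the whole gate, these changed sign. With no S100 threshold Retnlg was 0.30, Csf3r 0.05, Hp 0.07, Isg15 0.80, Slfn4 0.19, Irf1 0.37, Tpi1 -0.16, Eno1 -0.14, Klf4 -0.86, Stfa2l1 0.20, Cd300lf 0.23 and Krt1 -1.23. That setting admits 19 cells in each library, of which 9 (WT_LW) and 11 (TLR9agonist_LW) hold 30 or more dendritic cell marker UMIs. With at least 6 marker UMIs Il1rn was 1.18, Traf1 1.62, Hif1a -0.17, Gadd45a -0.01, Ctsz 0.37, Cd300lf 0.31, Id2 0.26 and Mbp 0.54. Without mixed cells Adam8 was 0.30, Ccl5 0.35, Traf1 1.59, Rel 0.18, Anxa1 -0.02, Ctsl -0.18, Postn -0.02 and Thbs2 -0.33, and of the genes not called in the whole gate Egr1 (0.12 to -1.58) and Cd274 (-0.22 to 1.24) also turned and passed 2-fold. Traf1 and Cd274 rested on few WT_LW UMIs there. In cells of 1500 to 4000 UMIs Traf1 was 1.52, Anxa1 -0.26, Postn -0.07 and Thbs2 -0.24. Mbp was 1.29 with at least 60 S100 UMIs and 0.75 without predicted doublets, and Traf1 was 0.38 with equal weight per cell. The cause of these changes was not tested beyond the cells each setting removes or admits.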

Other observations

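Among the unmixed cells, a long noncoding RNA and a cell cycle inhibitor outside the lists also differed. Neat1, the scaffold of nuclear paraspeckles, had medians of 25.9 and 13.9 per 10000 UMIs in WT_LW and TLR9agonist_LW (log2 ratio -1.39, -1.63 to -1.15). Cdkn1a, which encodes the inhibitor p21, was seen in 5 of 18 and 63 of 101 cells (1.65, 0.79 to 2.68). Fabp5, a fatty acid binding protein, was at 1.74 (1.21 to 2.32), but in thinned TLR9agonist_LW cells it was seen in 90.0% of neutrophils and in 73.8% of T cells.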
